A study of Drosophila melanogaster with 6 samples.

Results

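Mitochondrial ribosomal proteins are the nuclear-encoded protein subunits of the ribosome that works inside mitochondria. Their transcripts were followed in Kc-167 cells, an embryonic Drosophila melanogaster line with features of haemocytes. The genes were chosen by symbol: every gene named mRpL or mRpS followed by a number, together with tko and bonsai, for which the array has a probe set (the group of short probes that reports 1 transcript) assigned to no other gene. This gave 66 of the 10845 genes with such a probe set, 43 of the large subunit (mRpL) and 23 of the small subunit (mRpS, tko and bonsai). Of the 75 genes in the RefSeq annotation that match the same symbols, 9 were not analysed here: mRpL27, mRpL34, mRpL37, mRpL53, mRpS5, mRpS10, mRpS14, mRpS21 and mRpS23.

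The study set 3 arrays of control RNAi, with double-stranded RNA (dsRNA) for beta-lactamase, a bacterial gene, beside 3 arrays of Enigma RNAi. Enigma (CG9006, symbol Egm) is related to acyl-CoA dehydrogenases, enzymes of mitochondrial fatty acid oxidation. In both groups the cells took up 20 µg of dsRNA for 1 hour without serum and were harvested on day 5. The arrays of each group carry replicate numbers 1 to 3, and the labels do not say whether these were separate cultures, so p-values measure only the spread between these arrays, which may be technical.

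The mitochondrial ribosome translates the few proteins encoded by mitochondrial DNA, all of them core subunits of the respiratory chain and ATP synthase. Its large subunit joins amino acids into the chain and threads the chain through an exit tunnel toward the inner membrane, and its small subunit reads the mRNA. All its proteins are made in the cytosol and imported, whereas its RNAs are transcribed in the organelle. In flies, mutants of tko, which encodes the decoding-centre protein S12, develop slowly and have seizures, and bonsai, which encodes S15, is needed for larval growth.

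Expression is given as GCRMA values in log2 units, with means as ± SD and n = 3 arrays per group. A difference is always Enigma RNAi minus control RNAi, so that -1 would be a halving. Tests covered the 6975 probe sets that exceeded a log2 of 4 on 3 or more of the 6 arrays. Where a gene had several probe sets, the one with the highest mean was used, and all 66 genes passed. Second probe sets existed for mRpL11 and mRpL12, and both lay under the filter on all 6 arrays, at 2.21 to 2.31 for mRpL11 and 2.52 to 2.65 for mRpL12. That of mRpL11 differed by 0.01, against -0.09 on the probe set used.

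The Enigma transcript itself had values of 6.00, 6.41 and 6.71 in control replicates 1 to 3 and 3.24, 3.51 and 4.21 after Enigma RNAi. The groups did not overlap, with a difference of -2.72 (95% confidence interval -3.41 to -2.04, exact permutation p = 0.1, two-sided, the smallest that 3 against 3 arrays allows). It passed the threshold only with the replicate number as a block in the fit (limma, adjusted p = 0.000118, against adjusted p = 0.283 without the block). Only Enigma RNAi replicate 3 was above the filter of 4, and with lower values raised to 4 the difference was -2.31. Of 10 plasmatocyte markers on the array, 6 were above the filter (Col4a1, Hml, Ppn, Pxn, srp and vkg), while 0 of 4 fat body, 0 of 3 muscle and 0 of 3 glial markers were. Also above it were 2 of 4 neuron markers (brp and elav), 1 of 4 for crystal cells (lz), 1 of 4 for lamellocytes (cher) and 1 of 4 for germline (bam). The log2 excess of 3' over 5' signal, which grows as RNA degrades, was read for the eIF4A, actin and Gapdh control transcripts. For eIF4A it was 1.38 ± 0.14 in the control group and 1.71 ± 0.22 in the Enigma RNAi group (SD, n = 3, exact permutation p = 0.1). For actin it was 0.65 ± 0.13 and 0.82 ± 0.18 (exact permutation p = 0.4). For Gapdh it was 1.98 ± 0.12 and 2.06 ± 0.02 (exact permutation p = 0.4). The part of this signal in the results below was not tested.

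After Enigma RNAi the mitochondrial ribosomal protein transcripts lay slightly lower than in controls, by amounts within the spread between arrays for nearly every gene. The median difference over the 66 genes was -0.08, against -0.03 over all tested probe sets, and single differences ran from -0.53 for mRpL9 to 0.25 for mRpL22. The mean was lower for 51 of the 66 genes (77.3%, against 58.3% of all tested probe sets) and higher for 15. For 49 of the 66 the difference was smaller than 0.2 in either direction. In bulk RNA, fewer cells of a kind and less RNA per cell cannot be told apart.

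None of the 66 passed an adjusted p under 0.05 in limma, either without the block (0% of all tested probe sets passed) or with it (0.631%). The smallest adjusted p among them was 0.999 without the block and 0.0744, for mRpL9, with it. At an unadjusted p under 0.05, without the block, there were 2 lower genes, mRpL9 and mRpL44, and 0 higher (against 2.57% and 1.69% of all tested probe sets). With the block there were 9 lower, or 13.6%, beside 12.4% of all tested probe sets, and 1 higher, mRpL22, beside 6.91%. With the block and without both replicate 1 arrays, 2 genes passed, mRpL9 and mRpL32, in a fit of 4 arrays that called 8.4% of all tested probe sets. The 95% confidence interval reached a median of 0.33 to either side of the difference without the block and 0.23 with it. For 65 of the 66 genes the whole interval without the block lay between -1 and 1, the exception being mRpL32.

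**Figure D1:**
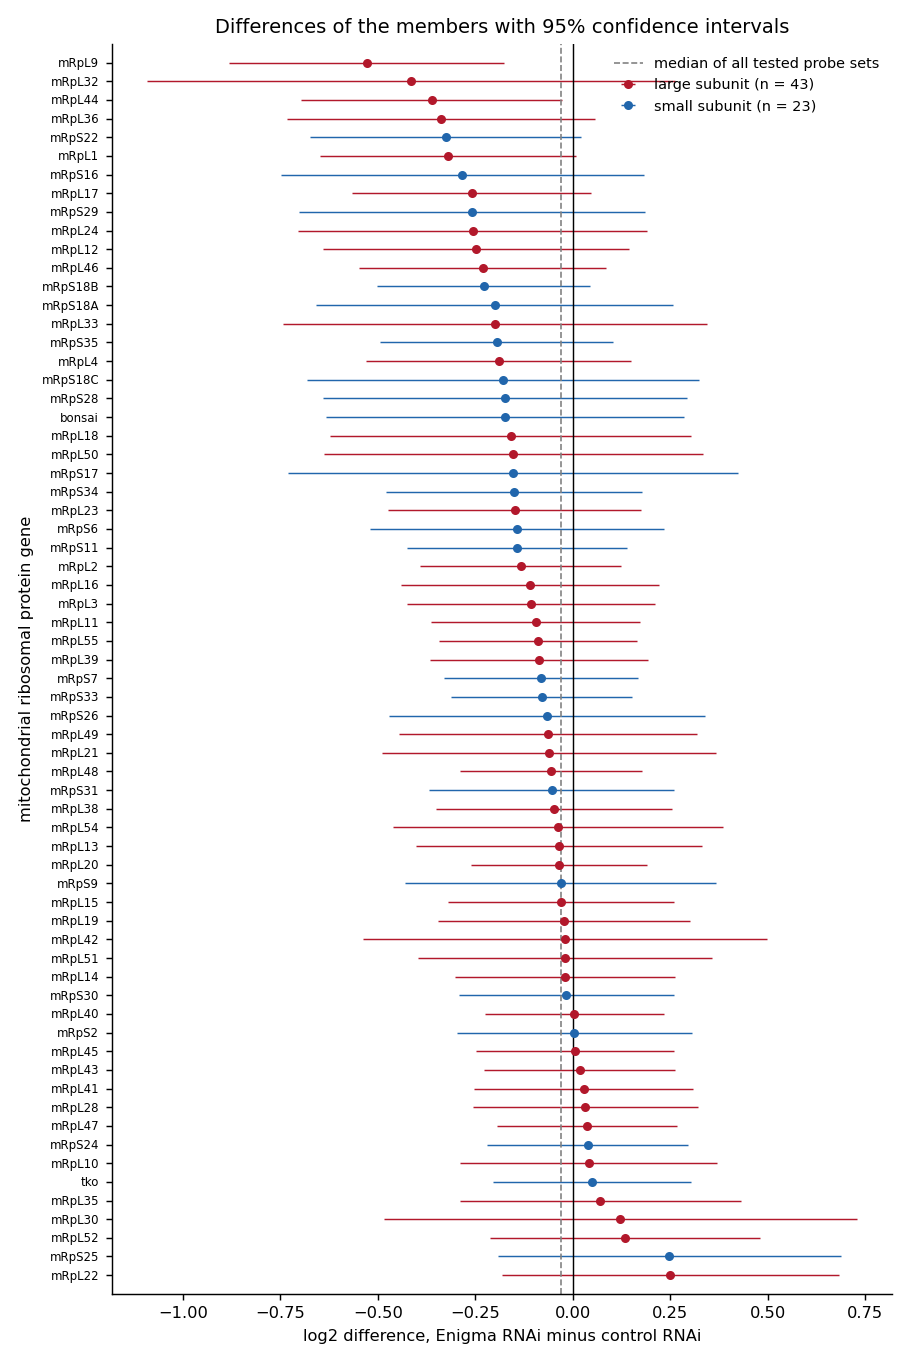
Log2 difference (Enigma RNAi minus control RNAi) of each of the 66 genes, ordered by size, with the 95% confidence interval from limma without the block, red for the large and blue for the small subunit. The 51 genes left of 0 include those of both subunits, and only the intervals of mRpL9 and mRpL44 leave out 0.

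The order of the arrays was shared by many of the genes. Enigma RNAi replicate 2 had the lowest of the 6 values for 36 of the 66 genes, 54.5% against 26.7% of all tested probe sets. It lay under the gene's own mean for 56 of the 66, and under that mean for 52.4% of all tested probe sets. Relative to each gene's mean over the 6 arrays, the median gene stood at -0.18 on this array, and at 0.00 and 0.01 on Enigma RNAi replicates 3 and 1. Over all tested probe sets the median on Enigma RNAi replicate 2 was -0.02. The median level of all tested probe sets was also lowest on this array, at 5.99 against 6.10 to 6.16 on the others. The median level of the 66 genes stood 0.70 above it there. On Enigma RNAi replicates 1 and 3 it stood 0.71 and 0.69 above, and in controls 0.76 to 0.78. Control replicate 3 was at the other end, with the highest value for 30 of the 66 genes (45.5%, against 22.5% of all tested probe sets) and a median of 0.10.

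**Figure D2:**
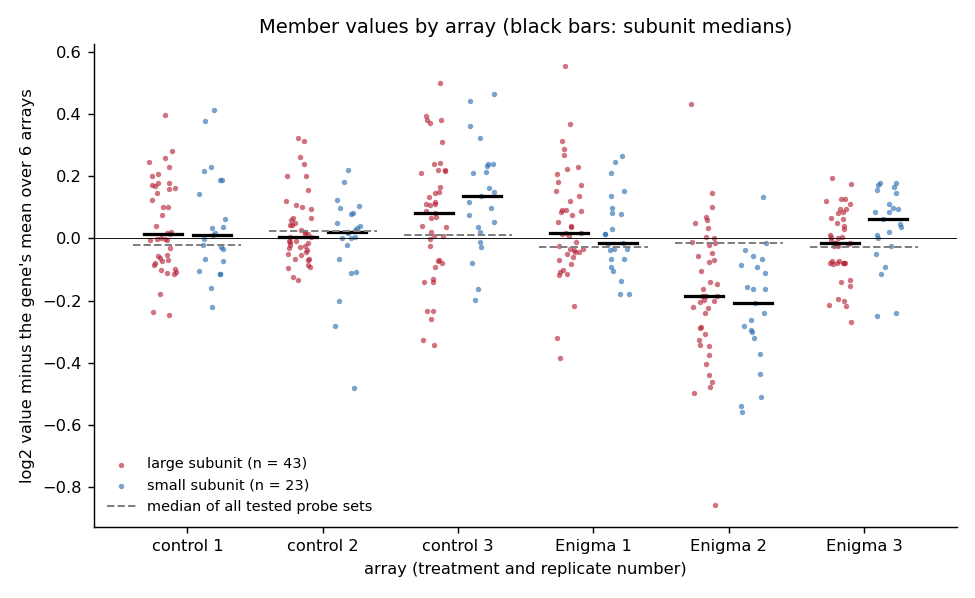
Values of the 66 genes on each array as the log2 value minus the gene's mean over the 6 arrays, with large subunit genes in red, small subunit genes in blue, black bars at the subunit medians and grey dashes at the median of all tested probe sets. Both subunits sit low on Enigma RNAi replicate 2, at -0.18 and -0.21, and high on control replicate 3, at 0.08 and 0.14.

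Within replicate numbers, the median difference over the 66 genes was 0.00 in replicate 1, -0.20 in replicate 2 and -0.07 in replicate 3, against 0.00, -0.03 and -0.05 over all tested probe sets. The genes that were lower numbered 32, 53 and 50 in the 3 pairs, or 48.5%, 80.3% and 75.8%. Of all tested probe sets, 49.6%, 54.5% and 62.9% were lower. Lower in all 3 pairs were 23 genes, or 34.8%, against 25.2% of all tested probe sets, and higher in all 3 were 4 genes, mRpL22, mRpL43, mRpL52 and mRpS25, or 6.06% against 15%. Without Enigma RNAi replicate 2 the median over the 66 genes was -0.04, beside -0.04 over all tested probe sets. Then 41 genes were lower instead of 51 (62.1%, against 60.1% of all tested probe sets). That array was picked out by the values of these same genes, so the smaller gap without it is only a description. Without Enigma RNAi replicate 1 the median was -0.13, beside -0.03 over all tested probe sets, and without Enigma RNAi replicate 3 it was -0.11, beside -0.02. With each array's median over the tested probe sets subtracted, the median over the 66 genes was -0.01, beside 0.05 over all tested probe sets. In that case 35 genes were lower (53.0%, against 39.8% of all tested probe sets).

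**Figure D3:**
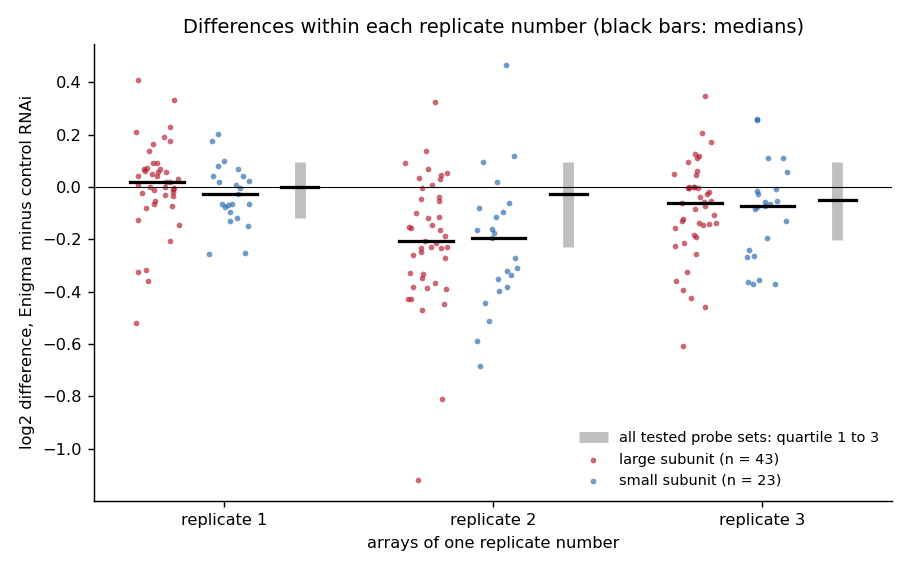
Log2 difference between the Enigma RNAi and the control array of each replicate number, for large (red) and small (blue) subunit genes, with black bars at medians and a grey bar from the lower to the upper quartile of all tested probe sets. The medians of both subunits are near -0.20 in replicate 2 and within 0.03 of 0 in replicate 1.

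Among the proteins of the large subunit, mRpL9 had the largest difference. Its bacterial relative L9 sits at the base of a side stalk of the ribosome. The mRpL9 probe set had values of 7.66, 7.88 and 7.94 in control replicates 1 to 3 and 7.35, 7.06 and 7.49 after Enigma RNAi. All Enigma RNAi values were under all control values. The means were 7.83 ± 0.15 and 7.30 ± 0.21 (SD, n = 3), a difference of -0.53 ± 0.15 (SE, limma), or 1.44-fold lower, which did not pass (adjusted p = 0.999, and 0.0744 with the block). It was -0.41 without Enigma RNAi replicate 2 and -0.61 without control replicate 1.

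mRpL44, whose human counterpart lies near the exit of the tunnel and resembles a ribonuclease, had values of 6.998, 6.92 and 7.02 in controls and 6.48, 6.49 and 6.88 after Enigma RNAi. The control values were close together, the groups did not overlap, and Enigma RNAi replicate 3 was nearest to the controls. The difference was -0.36 ± 0.14 (SE, limma, adjusted p = 0.134 with the block). It was -0.23 with arrays weighted by their quality and -0.39 without control replicate 2. mRpL1, the counterpart of the bacterial stalk protein L1 through which spent tRNA leaves, had values of 7.35, 7.19 and 7.62 in controls and 7.15, 7.05 and 7.02 after Enigma RNAi. These groups did not overlap either, and the difference was -0.32 ± 0.14 (SE, limma, adjusted p = 0.195 with the block). It was -0.20 without control replicate 3 and -0.42 without control replicate 2.

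mRpL36, a small zinc-binding protein in bacteria, had nearly the same difference in every pair, at -0.32, -0.33 and -0.36. Its values were 8.36, 8.09 and 8.53 in controls and 8.04, 7.75 and 8.17 after Enigma RNAi, so the groups overlapped, since both arrays of replicate 2 were low. The difference of -0.34 ± 0.17 (SE, limma) did not pass (adjusted p = 0.102 with the block). It was -0.22 without Enigma RNAi replicate 2 and -0.46 without control replicate 2.

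mRpL32 differed by -0.41 ± 0.28 (SE, limma), most of it from 1 array. It had values of 6.32, 6.34 and 6.19 in controls and 6.39, 5.22 and 6.00 after Enigma RNAi. The value of Enigma RNAi replicate 2 stood apart from the other 5, and mRpL32 had the highest SD over the 6 arrays of all 66 genes, 0.44. Without that array the difference was -0.09, and without Enigma RNAi replicate 1 it was -0.67.

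The 6 proteins grouped around the exit tunnel did not go one way, with a lower mean for 3 and a higher mean for 3. mRpL22, whose bacterial counterpart lines the tunnel, had the largest difference toward higher values, with 6.05, 6.40 and 6.06 in controls and 6.38, 6.73 and 6.16 after Enigma RNAi. It was higher in every pair, but control replicate 2 exceeded 2 of the Enigma RNAi values. The difference of 0.25 ± 0.18 (SE, limma) did not pass (adjusted p = 0.221 with the block). It was 0.10 without Enigma RNAi replicate 2 and 0.37 without control replicate 2. mRpL17 and mRpL24 differed by -0.26 each and mRpL23 by -0.15. Without Enigma RNAi replicate 2 mRpL17 differed by -0.20, mRpL24 by -0.09 and mRpL23 by -0.04. mRpL45, which in mammals anchors the ribosome to the inner membrane, differed by 0.01, or 0.04 without that array, and mRpL47 by 0.04. The exit tunnel group and the other groups by position named below were drawn up after the values were seen. mRpL44, at -0.36, and mRpL4, at -0.19, were not placed in the exit tunnel group, so its split depends on which genes were put in it.

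The stalk that binds translation factors is formed by mRpL10 and mRpL12 on a base with mRpL11. mRpL12, which in mammals also binds the mitochondrial RNA polymerase, differed by -0.25, mRpL11 by -0.09 and mRpL10 by 0.04, and without Enigma RNAi replicate 2 they differed by -0.15, -0.05 and 0.08. Of 5 proteins of the central protuberance, the knob that faces the small subunit, 4 had a lower mean, from -0.23 for mRpL46 to -0.05 for mRpL38, and mRpL40 differed by 0.00. Without Enigma RNAi replicate 2 all 5 had a lower mean, with a median of -0.05, against -0.06 with all arrays.

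**Figure D4:**
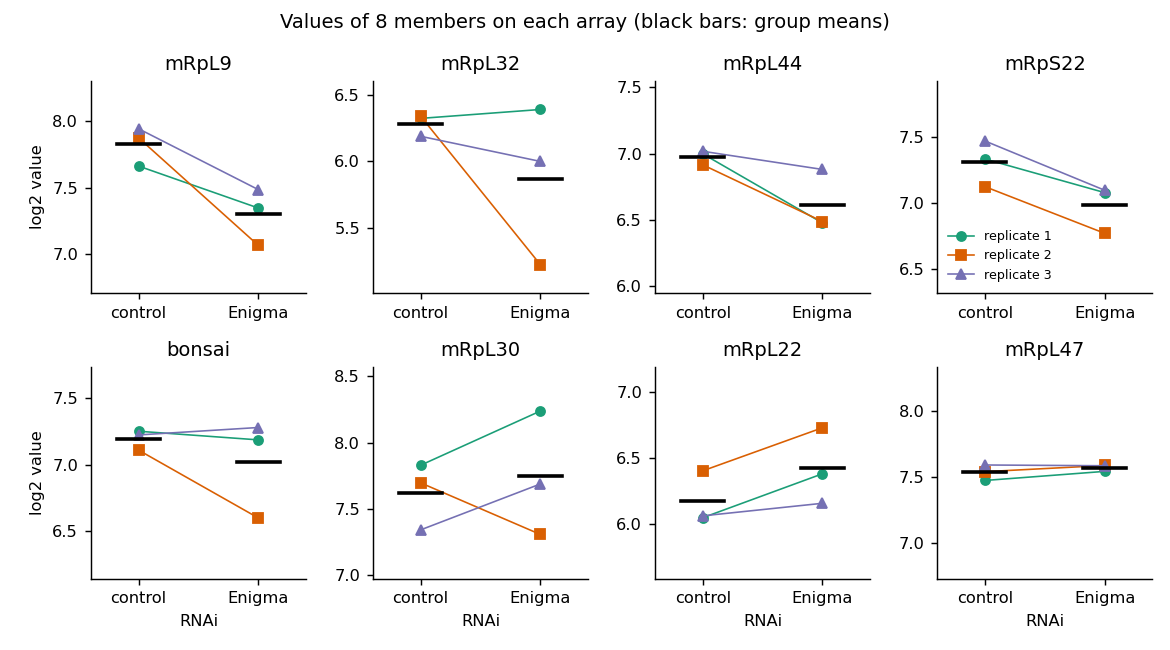
Log2 values of 8 genes on the control and Enigma RNAi arrays, joined by replicate number, with black bars at the group means and an axis of the same length in every panel. The lines of mRpL9, mRpL44 and mRpS22 slope down in all 3 pairs, those of mRpL32 and bonsai mainly in replicate 2, both replicate 1 arrays of mRpL30 lie above its other 4, and mRpL47 is nearly flat.

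In the small subunit, mRpS22, a protein with no bacterial counterpart, had values of 7.33, 7.12 and 7.47 in controls and 7.08, 6.77 and 7.10 after Enigma RNAi. All Enigma RNAi values lay under all control values, by a narrow margin between control replicate 2 and Enigma RNAi replicate 3. The difference was -0.33 ± 0.15 (SE, limma, adjusted p = 0.116 with the block). It was -0.22 without Enigma RNAi replicate 2 and -0.42 without control replicate 2. mRpS18B was the fifth gene whose groups did not overlap, with values of 6.66, 6.55 and 6.46 in controls and 6.40, 6.38 and 6.19 after Enigma RNAi. Its difference was -0.23, or -0.26 without Enigma RNAi replicate 2. These 5 genes, mRpL1, mRpL9, mRpL44, mRpS18B and mRpS22, all lower after Enigma RNAi, made up 7.58% of the 66, beside 6.16% of all tested probe sets, and 0 genes were higher without overlap (2.81%).

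Of the 6 proteins grouped at the small subunit head, 6 had a lower mean with all arrays and 4 without Enigma RNAi replicate 2, where mRpS31 differed by 0.04 and mRpS9 by 0.10. Of all 66 genes, 77.3% were lower with all arrays and 62.1% without that array, against 58.3% and 60.1% of all tested probe sets. mRpS24, at 0.04, was not placed in the head group. mRpS29, a GTP-binding protein known in mammals as death-associated protein 3, had the largest difference of the 6, -0.26 ± 0.19 (SE, limma, adjusted p = 0.228 with the block). Its values were 6.90, 7.05 and 7.48 in controls and 6.83, 6.71 and 7.11 after Enigma RNAi. The difference was -0.09 without control replicate 3 and -0.38 without control replicate 1. With all arrays, mRpS35, mRpS7, mRpS33, mRpS31 and mRpS9 differed by -0.19 to -0.03, and without Enigma RNAi replicate 2 mRpS35 differed by -0.12.

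The body and platform of the small subunit contain both genes known by their mutants. tko had values of 4.71, 4.86 and 4.81 in controls and 4.78, 4.95 and 4.79 after Enigma RNAi, all within a narrow range not far above the filter of 4. The difference was 0.05, with a confidence interval of -0.20 to 0.30. bonsai had values of 7.25, 7.11 and 7.23 in controls and 7.19, 6.60 and 7.28 after Enigma RNAi. Only Enigma RNAi replicate 2 was outside the control range by more than 0.1: the difference was -0.17 with it and 0.04 without it. mRpS16 had the same form, with values of 8.25, 8.31 and 8.43 in controls and 8.15, 7.63 and 8.35 after Enigma RNAi. Its difference was -0.28 with Enigma RNAi replicate 2 and -0.08 without it, and it was -0.34 without Enigma RNAi replicate 1. mRpS6, mRpS11 and mRpS17 of the same region differed by -0.14, -0.14 and -0.15. Without Enigma RNAi replicate 2 they differed by -0.10, -0.12 and 0.08.

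mRpS25, a mitochondrial protein of the small subunit without a bacterial counterpart, was the gene of this subunit with the largest difference toward higher values. It had 7.20, 6.53 and 6.93 in controls and 7.22, 6.997 and 7.19 after Enigma RNAi. The low value of control replicate 2 carried most of the difference of 0.25 ± 0.18 (SE, limma, adjusted p = 0.278 with the block). The difference was 0.07 without that array and 0.40 without control replicate 1.

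Large and small subunits differed little from each other. The median difference was -0.06 over the 43 large subunit genes and -0.14 over the 23 small subunit genes, and 32 and 19 of them had a lower mean, which is 74.4% and 82.6%. The gap between these medians, large minus small, was 0.08. Within replicate numbers it was 0.05, -0.01 and 0.01, and without Enigma RNAi replicate 2 it was -0.01. With each array's median subtracted, the large subunit median was 0.02 and the small -0.07. In mammalian structures mRpS30 and mRpS18A belong to the large subunit in spite of their names, and counting them there left both medians at -0.06 and -0.14.

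Split by numbering, the 26 large subunit genes numbered within the bacterial series (up to 36) had a median difference of -0.11, and the 17 with higher numbers, a series used for proteins found in mitochondrial ribosomes, had -0.04. In the small subunit the 12 genes of the bacterial series (up to 21, with tko and bonsai) had -0.15 and the 11 with higher numbers -0.08. Without Enigma RNAi replicate 2 these 4 medians were -0.05, -0.01, -0.05 and -0.03. On Enigma RNAi replicate 2 the lowest value fell for 15 of the 26, 8 of the 17, 6 of the 12 and 7 of the 11. These medians are a description, and the gaps between them were not tested.

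Some genes varied far less than others over the 6 arrays. The SD over the arrays had a median of 0.17 and ran from 0.03 for mRpL20 to 0.44 for mRpL32. mRpL20 stayed between 5.60 and 5.71, mRpL40 between 4.75 and 4.84, and mRpL47 between 7.47 and 7.59. The confidence interval of mRpL47, whose bacterial counterpart L29 sits at the tunnel exit, was -0.19 to 0.27.

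For other genes both replicate 1 arrays stood apart from the rest, in shares near or under those of all tested probe sets. Both replicate 1 arrays exceeded the other 4 for 12 genes (18.2%, against 17.7% of all tested probe sets), among them mRpL30, which had values of 7.83, 7.70 and 7.34 in controls and 8.24, 7.31 and 7.69 after Enigma RNAi. mRpL30 had the second-highest SD of the 66 genes and pair differences of 0.41, -0.39 and 0.35, so its mean difference of 0.12 stands for pairs of opposite direction. The same order was seen for mRpL10, mRpL13, mRpL21, mRpL35, mRpL51, mRpL52, mRpL54, mRpS17, mRpS18C, mRpS25 and mRpS26. Both replicate 1 arrays were the lowest for 5 genes, mRpL18, mRpL38, mRpL40, mRpS7 and tko (7.58%, against 22.2%).

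The rest of mitochondrial gene expression was followed through 26 tested genes of 38 matched to current symbols: translation factors, aminoacyl-tRNA synthetases of the organelle and transcription factors. Their median difference was -0.07, and 21 had a lower mean (80.8%, against 58.3% of all tested probe sets). With or without the block 0 of them passed, beside 0.631% of all tested probe sets with it. The largest difference was that of SerRS-m, which charges the mitochondrial serine tRNA. SerRS-m had values of 5.54, 5.27 and 5.71 in controls and 4.97, 4.85 and 5.20 after Enigma RNAi. The groups did not overlap, and the difference was -0.50 ± 0.16 (SE, limma, adjusted p = 0.0594 with the block). mEFTu2, an elongation factor that delivers tRNA to the ribosome, had values of 6.19, 6.15 and 6.54 in controls and 6.09, 5.14 and 6.24 after Enigma RNAi, again with Enigma RNAi replicate 2 far under the other 5. It differed by -0.47, by -0.13 without that array and by -0.60 without Enigma RNAi replicate 1. GatA, a subunit of the enzyme that makes mitochondrial glutaminyl-tRNA, differed by -0.27, almost all of it from control replicate 3, and by -0.48 without control replicate 1. The elongation factor mEFTs differed by -0.19, or -0.06 without Enigma RNAi replicate 2 and -0.30 without Enigma RNAi replicate 1. mTerf3, a factor of mitochondrial transcription and translation, differed by 0.27, or 0.11 without control replicate 3 and 0.40 without control replicate 2. The gene bor, for an ATPase of the inner membrane, differed by 0.26, or 0.08 without Enigma RNAi replicate 3 and 0.41 without Enigma RNAi replicate 2.

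Beside these, 48 oxidative phosphorylation genes had a median difference of -0.09 and 35 cytosolic ribosomal protein genes one of -0.06. Enigma RNAi replicate 2 had the lowest value for 32 of the 48 and for 8 of the 35 (66.7% and 22.9%, against 26.7% of all tested probe sets). Without that array the medians were -0.02 and -0.06. Differences between these lists and the mitochondrial ribosomal proteins were not tested.

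**Figure D5:**
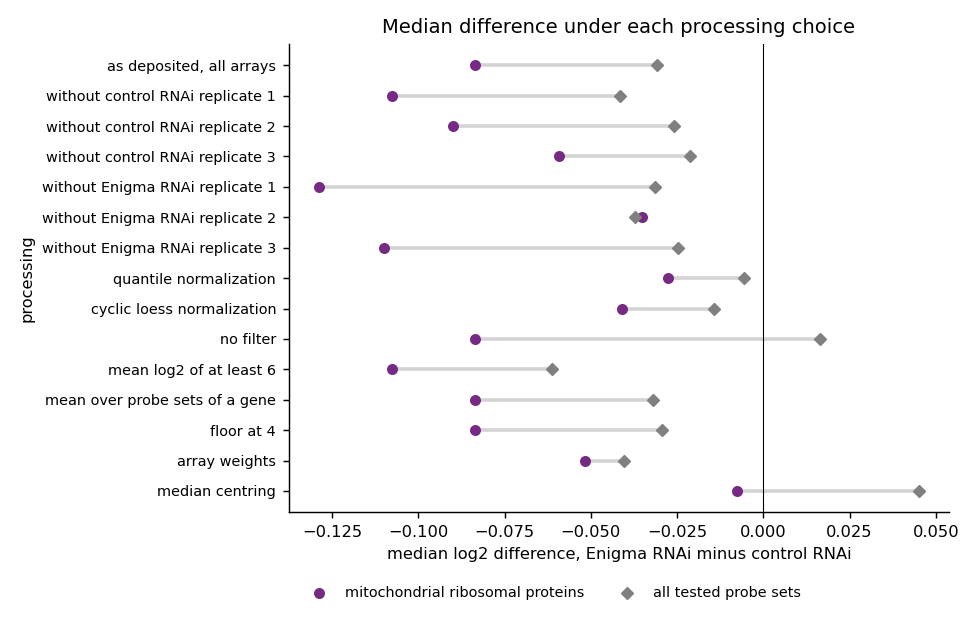
Median log2 difference over the mitochondrial ribosomal proteins (violet circles) and over all tested probe sets (grey diamonds) as deposited, without each array and under other processing. The violet circles run from -0.13 to -0.01, all left of 0, and they lie closest to the grey diamonds without Enigma RNAi replicate 2.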

How the data were processed

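The deposited table holds log2 expression values of 14010 probe sets on 6 Affymetrix arrays, made by the authors with GCRMA, per the submitters' processing notes, which corrects background, normalizes between arrays and summarises probes. No version of it is stated. The log2 scale was inferred from the method and the range of -0.32 to 14.30. Gene names came from GEO's platform annotation, and were compared by Entrez number with the RefSeq annotation (assembly Release 6 plus ISO1 MT: 12394 of 12444 one-gene probe sets matched, and 0 symbols changed). No coordinates, promoters or protein sequences were used here, and the planned search for promoter motifs was not run.

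After leaving out 44 control probe sets and applying the filter, 6975 probe sets were fitted together in limma 3.58.1 (lmFit, then eBayes) under R 4.3.3. Tests were two-sided, with Benjamini-Hochberg adjustment over all of them and a threshold of 0.05. The replicate number was not in the fit, and was a block in an alternative. The arrays were taken as paired by the numbers in their titles, since deviations from the group means correlated between arrays of the same number at r = 0.80, 0.64 and 0.65 across the 6975 probe sets, and at r = 0.64, 0.35 and 0.64 across the 66 genes. No shared culture or day is stated. The fit was tested on simulated data. Of probe sets given a difference of 0.5 it called 2% without the block and 24% with it. For a difference of 1 in either direction it called 43% and 73%, so differences as small as those of the 66 genes would mostly be missed. Alternatives were other normalizations, filters and array weights, the block, and leaving out single arrays. The number of arrays limits the precision. The genes, lists and tests were chosen with earlier results of these data known. The genes named by rule were Egm, tko and bonsai, any of the 66 past the threshold or under the filter (there were 0), the 12 of the 66 with the largest differences, the 4 largest of each subunit, the 6 with the smallest p with the block, the 3 with the highest and the 3 with the lowest SD, genes whose probe sets differ in sign, and the 6 of the mitochondrial gene expression list with the largest differences. Others were named after their values were seen. That list gave 38 genes by current symbol or synonym, of which 33 were on the array and 26 were tested. Apart from these 38 genes, 13 names were not matched, and Pdf, which matched an unrelated neuropeptide gene, was left out.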

Additional observations from a re-analysis of the deposited data

How the results depend on the processing

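Under 16 other settings the 25 genes of the named set other than Egm kept their direction and did not pass in 385 of 394 values. The block fits without replicate 1, 2 or 3 are not among these settings and are given below. The 9 exceptions were reversals of 5 genes, mostly with differences near 0: mRpL40 at -0.0094 without control RNAi replicate 1, -0.024 without Enigma RNAi replicate 2 and -0.016 with array weights, mRpL30 at -0.018 without control RNAi replicate 3 and -0.12 without Enigma RNAi replicate 1, bonsai at 0.038 and tko at -0.0046 without Enigma RNAi replicate 2, and mRpL20 at 0.014 with quantile normalization and 0.041 with median centring, an alternative chosen after seeing the data. Without single arrays these ran from -0.024 to 0.022 for mRpL40, -0.12 to 0.34 for mRpL30, -0.30 to 0.038 for bonsai and -0.0046 to 0.082 for tko. The median over the mitochondrial ribosomal proteins was -0.13 to -0.04 when single arrays were left out, -0.03 with quantile normalization, -0.04 with cyclic loess, -0.05 with array weights, -0.11 over the 55 genes with a mean log2 of at least 6, and -0.01 with median centring. The small subunit median was -0.17 to -0.032 without single arrays and -0.052 with array weights. The gap between the subunit medians was -0.0058 to 0.086 without single arrays, with the reversal to -0.0058 without Enigma RNAi replicate 2, and 0.017 with array weights. The median of the mitochondrial gene expression list reversed to 0.0038 with median centring. The replicate block left every median as it was, since the design is balanced, and among the results given here it changed 1 call, that of the Enigma transcript (-2.72, adjusted p = 0.000118), while over all tested probe sets it called 44 against 0 without it. That call also passed with the replicate block without replicate 1, 2 or 3, at -2.71, -2.63 and -2.83. With the block and without replicate 1, 2 of the 66 genes passed, mRpL9 at -0.64 and mRpL32 at -0.65 (limma, adjusted p = 0.00553 and 0.00948), in a fit of 4 arrays that called 8.4% of all tested probe sets, and 0 passed without replicate 2 or 3. The cause of these changes was not tested. With a mean log2 of at least 6 the Enigma transcript was not in the fit.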
